A study of Caenorhabditis elegans with 2 samples.

Results

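Synthetic multivulva (synMuv) genes, the NuRD deacetylase complex and related chromatin regulators make up a set of 44 C. elegans genes. The genes were picked by name, with earlier results of these data known. All 44 were found by symbol among 19973 nuclear protein-coding genes. The gene bodies and upstream regions of the 44 genes were examined for binding of T22C8.4, which RefSeq annotates as a C2H2-type domain-containing protein. Chromatin immunoprecipitation followed by sequencing was done with an anti-GFP antibody on strain OP785. This strain carries the transgene wgIs785, in which T22C8.4 is fused to TY1, EGFP and 3xFLAG, together with unc-119(+), in an unc-119(tm4063) background. Whole mid-stage embryos (labelled age 2 hours) were obtained by egg bleaching, and the 2 biological replicates form 1 group.

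A peak was assigned to a gene when its summit, the base of highest signal, lay in the gene body or up to 1000 bp upstream of any transcript 5' end. The authors' main list, made from both replicates, held 2415 peaks. Lists made from single replicates held 1629 peaks for replicate 1 and 1319 for replicate 2. Each peak carries the authors' signal value, which has no unit here, serves to rank peaks within a list and is not scaled between lists. Peak lists hold no read totals, so the depth is unknown. Whole embryos mix all cell types, and the tagged protein came from a transgene. No untagged strain and no second condition was analysed here, so nothing was tested between conditions, and counts are set beside the share of all protein-coding genes.

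The synMuv genes redundantly keep vulval fates off in cells that should not adopt them, and animals become multivulval when a class A and a class B gene are lost together. Class B includes the DREAM complex, in which a retinoblastoma protein works with E2F and DP to repress transcription, and several proteins of heterochromatin. NuRD couples a Mi-2 type ATPase to histone deacetylases, CBP and TIP60 type enzymes acetylate histones, and SWI/SNF and ISWI type enzymes move nucleosomes.

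Sequence windows at 10 of the member summits are printed here because the stronger peaks often hold the short sequence ATCGAT near the summit. They are the 5 strongest peaks, then swsn-1 and egl-27 as examples found in both replicates' own lists, isw-1, whose window has 2 matches, and lin-54 and lin-15B, which have none. The lin-35 peak, also in both own lists and stronger than that of egl-27, is not printed. The windows were picked as examples, and 7 of the 10 hold a match, against 12 of all 20 member summits. Each window reaches 50 bp to either side of the summit, was read from the RefSeq WBcel235 (ce11) genome on the strand of the named gene, and runs 5' to 3'. Capitals mark ATCGAT and a variant, ATTGAT, which was searched on both strands and so also as its reverse complement ATCAAT. The swsn-3 window has no match either.
lin-36 (chrIII:8021016-8021116, minus strand): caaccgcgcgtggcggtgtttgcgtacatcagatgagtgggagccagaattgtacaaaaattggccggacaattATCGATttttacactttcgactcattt
swsn-3 (chrIII:2768772-2768872, minus strand): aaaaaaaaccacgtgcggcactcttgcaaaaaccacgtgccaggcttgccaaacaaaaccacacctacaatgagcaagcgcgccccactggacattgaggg
cbp-1 (chrIII:9766310-9766410, plus strand): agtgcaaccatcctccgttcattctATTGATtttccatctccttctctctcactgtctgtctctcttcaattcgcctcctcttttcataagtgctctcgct
lin-13 (chrIII:7710276-7710376, minus strand): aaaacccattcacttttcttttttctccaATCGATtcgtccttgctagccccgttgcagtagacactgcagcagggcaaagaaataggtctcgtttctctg
swsn-6 (chrIV:5394848-5394948, plus strand): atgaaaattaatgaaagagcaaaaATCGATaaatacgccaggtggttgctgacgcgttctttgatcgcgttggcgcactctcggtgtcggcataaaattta
swsn-1 (chrV:20249939-20250039, minus strand): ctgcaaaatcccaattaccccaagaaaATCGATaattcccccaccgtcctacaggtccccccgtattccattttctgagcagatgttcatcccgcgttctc
egl-27 (chrII:6844702-6844802, plus strand): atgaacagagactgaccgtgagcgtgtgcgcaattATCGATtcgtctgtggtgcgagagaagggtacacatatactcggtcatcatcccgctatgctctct
isw-1 (chrIII:6710348-6710448, minus strand): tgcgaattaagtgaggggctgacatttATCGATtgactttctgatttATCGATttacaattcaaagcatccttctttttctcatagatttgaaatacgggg
lin-54 (chrIV:13240672-13240772, plus strand): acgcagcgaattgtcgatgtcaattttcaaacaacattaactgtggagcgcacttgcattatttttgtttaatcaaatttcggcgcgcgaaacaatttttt
lin-15B (chrX:15725566-15725666, plus strand): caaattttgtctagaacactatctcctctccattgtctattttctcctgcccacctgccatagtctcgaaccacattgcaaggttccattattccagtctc

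Peaks of T22C8.4 lay at 17 of the 44 genes (38.6%) and gave 20 summits. Under the same rule, 1817 of 19973 protein-coding genes (9.10%) had a summit. The 44 genes were chosen with earlier results of these data known, so these shares describe the set and test nothing. Every role had at least 1 gene with a summit. The SWI/SNF and ISWI remodeler group had a summit at 5 of 6 genes (swsn-1, swsn-3, swsn-6, isw-1 and nurf-1). Of these 5, 2 had a summit in both replicates' own lists. The Mi-2 gene let-418 was counted with NuRD, and further remodeler subunits are among the other chromatin genes below. Class A synMuv had 2 of 4 (lin-8 and lin-38), DREAM 2 of 8 (lin-35 and lin-54), and the other class B and heterochromatin genes 4 of 10 (lin-13, lin-15B, lin-36 and tam-1). Among the acetyltransferase genes and their partners there was 1 of 4 (cbp-1), and among NuRD and partner genes 1 of 9 (egl-27). Genes for H3 lysine 4 and lysine 36 methylation and its readers had 2 of 3 (met-1 and set-26). The H3 lysine 9 methyltransferase genes met-2 and set-25 were counted with heterochromatin, and neither had a main-list summit. The groups are small, and differences between them were not tested.

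**Figure D1:**
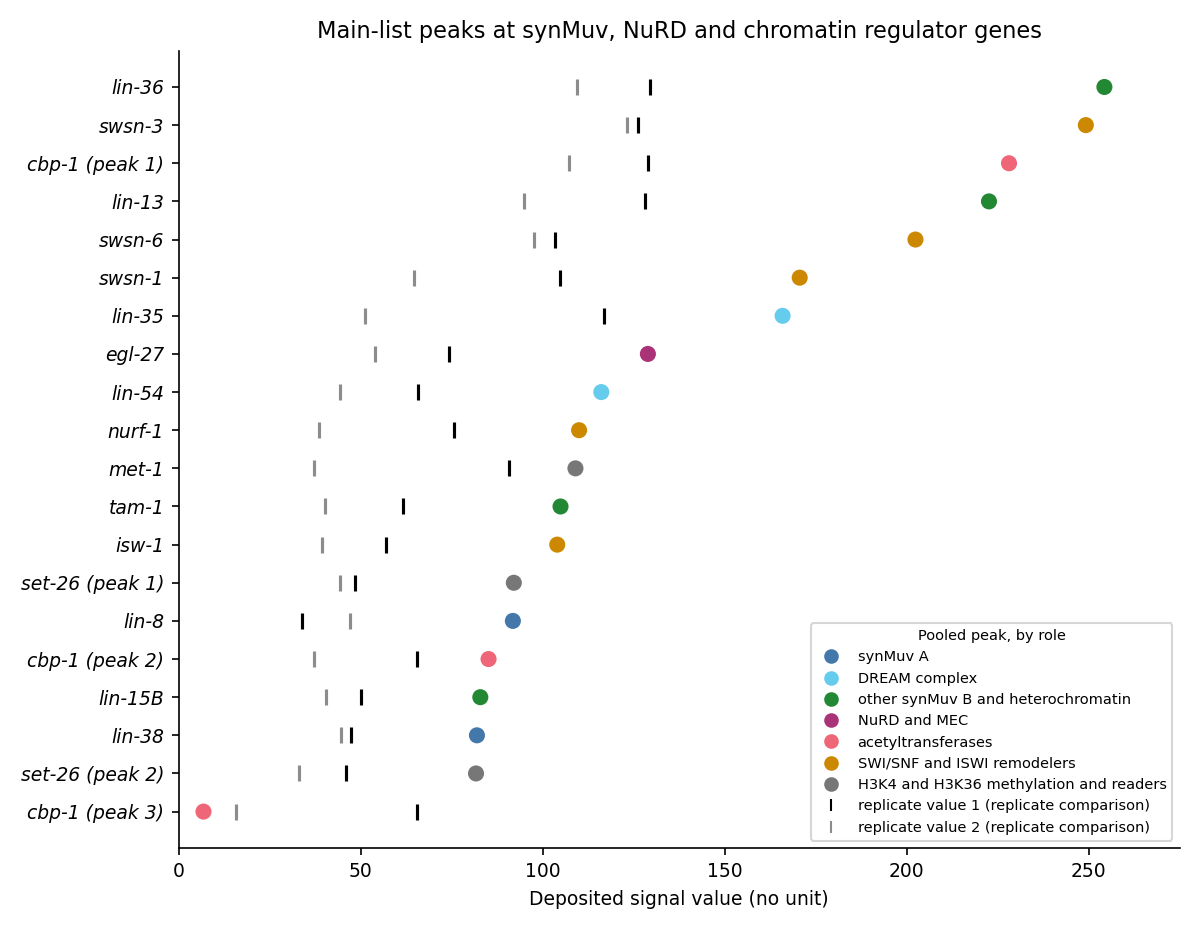
Signal values (no unit) of the 20 main-list peaks at 17 chromatin genes, with points coloured by role for the value from both replicates and ticks for the replicate values of the list that compares the replicates. The values from both replicates run from 6.82 at the third cbp-1 peak to 254 at lin-36.

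Remodeler genes held 3 of the 6 strongest member peaks. At swsn-3, which encodes an HMG-domain subunit of SWI/SNF, the peak (chromosome III, 2768747 to 2768877) reached a signal of 249. In replicates 1 and 2 alone it reached 126 and 123. The summit lay 143 bp upstream of swsn-3 and within an intron of cox-6B, a long gene on the other strand. At swsn-6, which encodes an actin-related subunit, the peak (chromosome IV, 5394753 to 5395042) reached 202, with its summit 135 bp upstream. The divergent gene perm-3 starts nearer, 94 bp from that summit.

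Replicate 2 alone gave the swsn-6 peak a signal of 97.8, and no entry of replicate 1's own ranked list overlapped it. The authors' list that ranks peaks by comparing the replicates does hold it, with replicate values of 103 and 97.8. That list does not number its replicates. At swsn-1, the gene for the SWI3-like core subunit, the peak (chromosome V, 20249844 to 20250133) reached 171, and 105 and 64.6 in replicates 1 and 2. Its summit lay 501 bp upstream.

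The ISWI genes had weaker peaks, each in the own list of replicate 1 and not in that of replicate 2. At isw-1, the ISWI ATPase gene, the peak (chromosome III, 6710253 to 6710542) reached 104, and 57.1 and 39.4 in replicates 1 and 2, with its summit 298 bp upstream. At nurf-1, which encodes the large NURF subunit, the peak (chromosome II, 14390242 to 14390531) reached 110, and 75.5 and 38.6 in replicates 1 and 2. The nurf-1 summit lay 326 bp upstream of nurf-1 and 309 bp upstream of the divergent gene kbp-3. The SWI/SNF ATPase gene swsn-4 had no main-list summit, and its strongest entry in the ranked list from both replicates was 41.9.

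The strongest member peak was at a class B synMuv gene. At lin-36, which encodes a THAP-like domain protein, the peak (chromosome III, 8021025 to 8021129) reached 254 and ranked 231 of 2415. Replicates 1 and 2 gave it 129 and 109. The summit lay 193 bp upstream of lin-36, inside the short noncoding RNA gene F44B9.11. At lin-13, which encodes a protein with many zinc fingers that acts with the HP1 protein HPL-2, the peak (chromosome III, 7710181 to 7710470) reached 223, rank 303. It reached 128 and 94.99 in replicates 1 and 2, and its summit lay 835 bp upstream.

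Weaker peaks stood at tam-1 and lin-15B, which complete the genes with a summit in the group of other class B and heterochromatin genes. The DREAM genes, also class B, are described below. The peak at tam-1, a RING finger gene that limits silencing of repetitive transgenes, (chromosome V, 4962933 to 4963222) had its summit in the 5' UTR, 24 bp into the gene. Its signal was 105, and 61.6 and 40.2 in replicates 1 and 2. The peak at lin-15B, a THAP domain gene, (chromosome X, 15725471 to 15725760) lay 507 bp upstream with a signal of 82.9, and 50.03 and 40.55 in replicates 1 and 2. It was in neither replicate's own list. Its score from the irreproducible discovery rate (IDR), 895, was the lowest of the 20 summits. Peaks of the main list have a score of at least 830, and the score is capped at 1000.

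None of the 6 remaining genes of this group had a main-list summit. They are the HP1 genes hpl-1 and hpl-2, the histone H3 lysine 9 methyltransferase genes met-2 and set-25, lin-65, whose product works with MET-2, and the MBT repeat gene lin-61. Their strongest entries ranged from 28.5 to 67.3. The highest, at set-25, lay 54 bp upstream with a score of 648. An overlapping peak passed in replicate 1's own list with a signal of 50.9.

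Within the DREAM complex, the retinoblastoma gene and a gene for a DNA-binding subunit had peaks. At lin-35, the retinoblastoma homologue, the peak (chromosome I, 5807350 to 5807639) reached 166, and 117 and 51.3 in replicates 1 and 2. Its summit stood between divergent genes, 214 bp upstream of lin-35 and 204 bp upstream of vps-51. At lin-54, whose product binds CHR promoter elements, the peak (chromosome IV, 13240577 to 13240866) reached 116, and 65.6 and 44.4 in replicates 1 and 2. This summit lay 322 bp upstream of lin-54 and 71 bp upstream of the divergent ribosomal protein gene rpl-12. The 6 other DREAM genes had entries from 41.8 to 72.1, all with the summit upstream of the gene. The highest were 72.1 at the E2F gene efl-1, with a score of 108, and 65.6 at lin-53, a histone-binding protein gene shared with NuRD, with a score of 611.

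The class A genes lin-8 and lin-38 had peaks in the lower part of the list. At lin-38, a zinc finger gene, the peak (chromosome II, 13575497 to 13575786) reached 81.9, and 47.3 and 44.7 in replicates 1 and 2. Its summit lay 283 bp upstream of lin-38 and 574 bp upstream of the divergent gene mrpl-37. At lin-8, which encodes a nuclear protein, the peak (chromosome II, 3059584 to 3059873) reached 91.8, and 33.9 and 47.1 in replicates 1 and 2. It was in neither replicate's own list, and its summit lay in an intron 2907 bp from the 5' end. Of the other class A genes, lin-15A had no entry in the ranked list from both replicates and lin-56 had one of 49.6.

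The only NuRD gene with a main-list summit was egl-27, which encodes an MTA family protein. Its peak (chromosome II, 6844607 to 6844896) reached 129, and 74.3 and 54.0 in replicates 1 and 2. The summit lay in an intron, 9744 bp from the outermost 5' end and 608 bp upstream of an internal transcript start. The Mi-2 gene let-418 had the strongest entry of all members without a main-list summit (chromosome V, 5826283 to 5826572), 77.0 at 405 bp upstream. It scored 91 in the list from both replicates and 839 in the list comparing them, where its replicate values were 32.5 and 41.4. In the own ranked lists, the strongest entry at let-418 was 14.3 in replicate 1, with a score of 22, and 41.4 in replicate 2. The value of 32.5 thus has no equal in the own ranked list of replicate 1. The conservative list, made from the comparison of the replicates, includes the let-418 peak. The 7 further genes of the group, chd-3, lin-40, dcp-66, mep-1, hda-1, hda-2 and hda-3, had entries of at least 38.5.

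The acetyltransferase gene cbp-1, a homologue of CBP and p300, had 3 summits upstream. The strongest (chromosome III, 9766290 to 9766423) lay 149 bp upstream with a signal of 228, and 129 and 107 in replicates 1 and 2. The second (9765466 to 9765755) lay 898 bp upstream with 85.1, and 65.6 and 37.1 in replicates 1 and 2. The third (9765677 to 9765966) overlaps the second, lay 687 bp upstream and had a signal of 6.82 and a −log10 q-value of 0.017. It scored 55 when the replicates were compared and is absent from the conservative list. The TIP60-type acetyltransferase gene mys-1 and its partners trr-1 and epc-1 had entries from 40.1 to 59.5.

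In the group for H3 lysine 4 and lysine 36 methylation, met-1 and set-26 each lacked a peak in at least 1 replicate's own list. At met-1, an H3 lysine 36 methyltransferase gene, the peak (chromosome I, 4254631 to 4254920) reached 109, and 90.7 and 37.1 in replicates 1 and 2. Its summit was in an intron, 310 bp downstream of the nearest 5' end. At set-26, a SET and PHD domain gene, peaks at 571 bp and 89 bp upstream (chromosome IV, 16656309 to 16656598 and 16655827 to 16656116) reached 92.1 and 81.7. The farther peak had 48.5 and 44.5 in replicates 1 and 2, and the nearer one 46.0 and 33.1. Neither set-26 peak was in a replicate's own list, and the divergent gene tsr-2 starts 159 bp from the farther summit. The SET1-type gene set-2 had an entry of 73.2 in a coding exon, whose score of 774 was the highest among members without a summit.

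Most member summits stood upstream of the gene, where the assignment rule admits at most 1000 bp. The share of all main-list summits outside a gene body was not counted. Outside the gene body were 16 of the 20, at 89 to 898 bp from the nearest 5' end with a median of 310 bp, and 10 of them were within 350 bp. At 6 summits another protein-coding gene starts nearer, namely perm-3, vps-51, rpl-12, kbp-3, tsr-2 and Y25C1A.6. When each summit went to the nearest 5' end only, 12 of 44 members (27.3%) had one, against 8.94% of all protein-coding genes. The members lost were lin-8, lin-35, lin-54, nurf-1 and swsn-6. In a promoter window from 1000 bp upstream to 200 bp downstream, 16 members (36.4%) had a summit, against 6.07% of all protein-coding genes, and lin-8 was lost. That window held 19 of the 20 member summits. Across the main list, 1984 summits were assigned to a protein-coding gene, and 1044 lay in such a promoter window. None of the 20 summits was within 150 bp of a tRNA, snoRNA, snRNA or miRNA gene, whereas 289 of the 2415 main-list summits were.

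**Figure D2:**
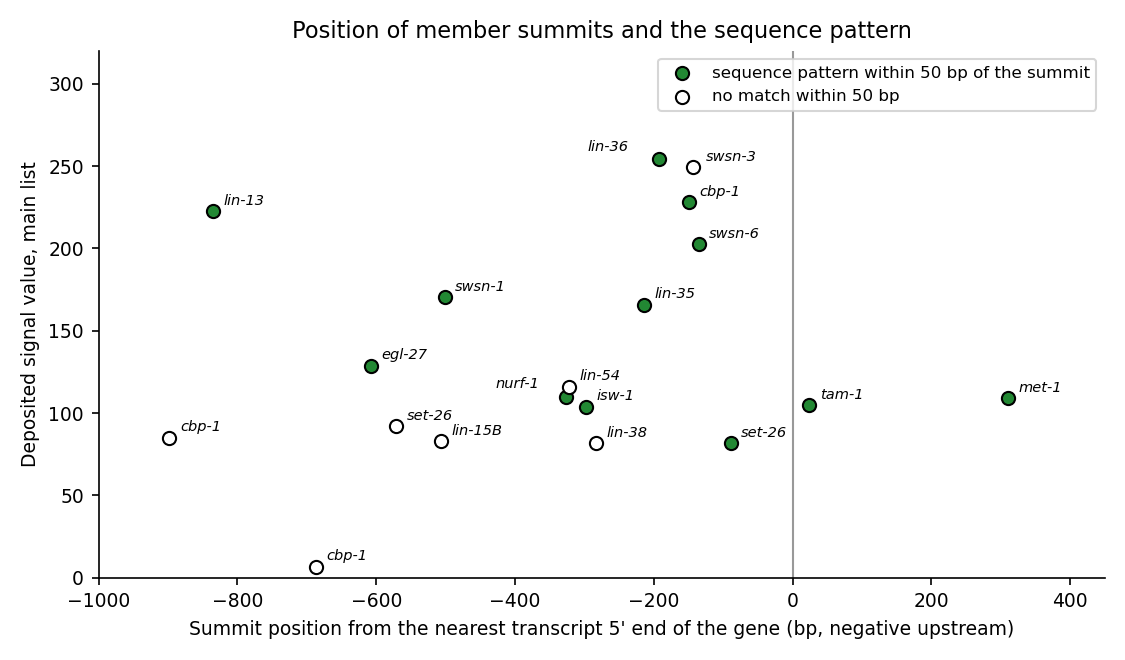
Distance of the summit from the nearest transcript 5' end of its gene (x axis, bp, negative upstream) against the main-list signal value (y axis, no unit) for 19 of the 20 member peaks. Filled points have the sequence pattern within 50 bp of the summit, and lin-8, at 2907 bp, is off the axis.

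The sequence pattern was present within 50 bp of 12 of the 20 member summits. Over all 2415 main-list summits 1601 (66.3%) had it, and over 1044 summits in promoters 667 (63.9%) had it. Windows of equal length placed 350 bp to either side held it in 10 of 40 cases around member summits and in 21.1% around all main-list summits. Of windows centred 200 bp upstream of all 19973 protein-coding genes, 14.2% held it. ATCGAT itself was at 9 of the 20 member summits, against 1216 of the 2415 main-list summits (50.4%). Among the 12 member summits with a match, cbp-1, tam-1 and the nearer set-26 summit had ATTGAT alone. The pattern was put together from an earlier look at this same list, so these counts describe it and test nothing.

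More of the stronger member peaks held the pattern than of the weaker ones, a difference that was not tested. Among member summits in the top 1207 peaks by signal, 9 of 11 (81.8%) had it, and swsn-3 and lin-54 lacked it. Among the other member summits, 3 of 9 (33.3%) had it. For all main-list peaks the shares were 69.7% in the top 1207 and 62.9% in the rest. The centre of the nearest match lay a median of 22.5 bp from the 12 member summits, and 12.5 bp from the 1601 summits with a match in the whole list. Most peaks share a width of 290 bp, 17 of the 20 member peaks and 81.1% of all.

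Signal values of the member peaks were spread through the list. Their median was 109.5, against 104.9 for all 2415 peaks. The top 1207 peaks included 11 of the 20 and the top 603 included 7. Signals above 200 were found at lin-36, swsn-3, cbp-1, lin-13 and swsn-6.

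The replicates' own lists held part of these peaks. Overlap of at least 1 bp with a peak in both own lists was found for 9 of the 20, against 42.3% of the main list. The 2 weaker cbp-1 peaks both count among the 9 and overlap the same peak in each replicate. A further 6 overlapped a peak of replicate 1 only, 1 of replicate 2 only, and 4 of neither, against 25.1% of the main list in neither. In the list comparing the replicates, the first of the unnumbered replicate values was the higher at 19 of the 20 peaks. That was so at 1537 of the 2405 main-list peaks with an entry there, and the difference was not tested. By gene, 7 of 44 members (15.9%) had a peak found in both own lists, against 3.90% of all protein-coding genes. They were lin-13, lin-35, lin-36, egl-27, cbp-1, swsn-1 and swsn-3. In the list comparing the replicates, 19 of the 20 peaks scored at least 830, as did 84.6% of main-list peaks. The conservative list had a summit at 18 members (40.9%), the 17 and let-418, against 8.79% of all protein-coding genes.

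Below the threshold, 26 of the 27 remaining members had an entry in the ranked list from both replicates, with a median strongest signal of 55.1. Of the 18156 protein-coding genes without a main-list summit, 66.7% had an entry, with a median of 40.5. Of the 26 members, 22 lay above that median. These shares and medians were not matched for gene length. Members, with and without a summit together, had a median length of 5344 bp, against 2027 bp for all protein-coding genes. The comparison therefore cannot show whether members exceed other genes of equal length. The 5 strongest of the 26 members were let-418, set-2, efl-1, set-25 and lin-53, between 65.6 and 77.0. The weakest member peaks in the main list, apart from the third cbp-1 summit, were 81.7 at set-26 and 81.9 at lin-38.

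**Figure D3:**
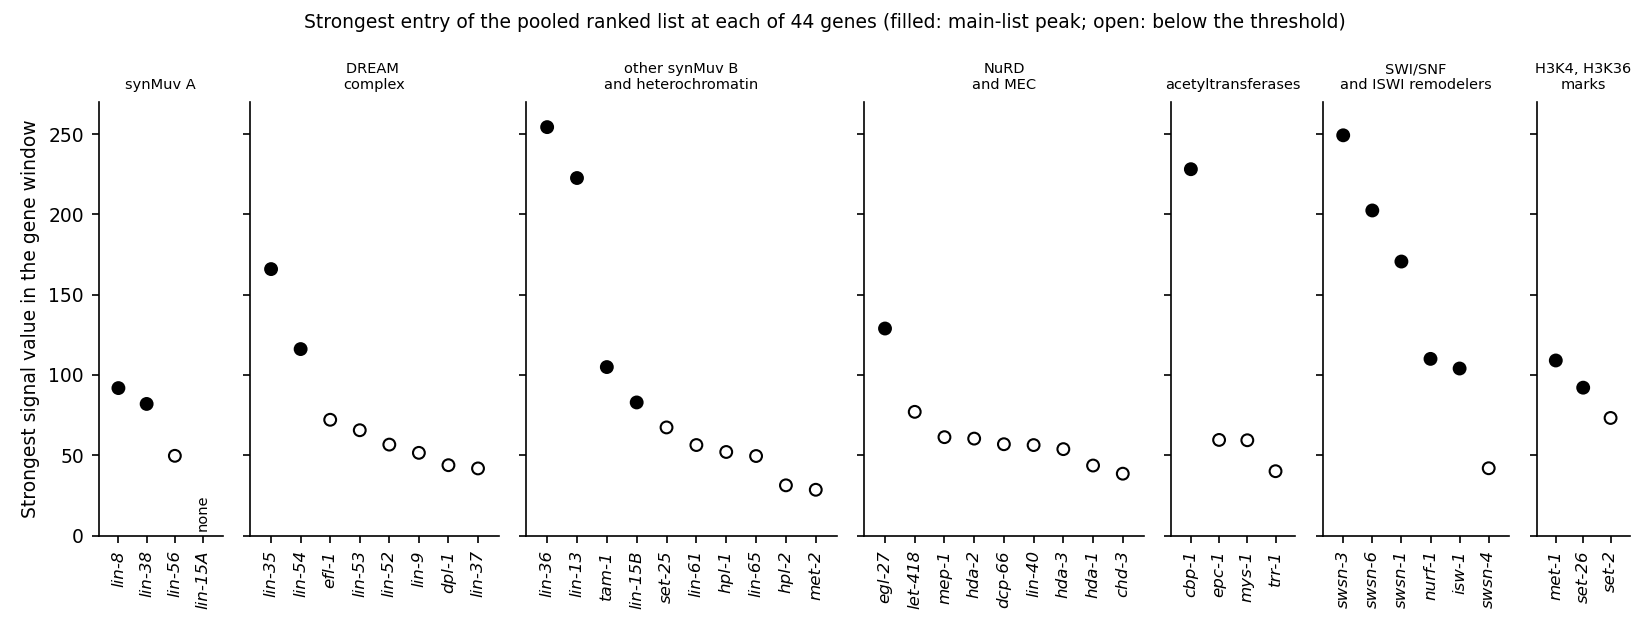
Strongest signal value (y axis, no unit) in the ranked list from both replicates for each of the 44 genes, by role. Filled points are genes with a main-list summit, open points are genes without one, and lin-15A has no entry.

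Members were long, with a median of 5344 bp against 2027 bp for all protein-coding genes, and longer genes more often had a summit. Among genes of at least 3637 bp, 14 of 28 members had one, against 18.0% of all genes in that class. From 2028 to 3636 bp it was 2 of 8 members (lin-8 and lin-54), against 8.01% of all genes in that class. From 1216 to 2027 bp it was 1 of 7 members (swsn-6), against 5.09% of all genes in that class, and the 1 shorter member had none, against 5.30%. By chromosome, 2 of 7 members on I had a summit, against 13.9% of all protein-coding genes there, and 4 of 8 on II, against 8.15%. On III it was 5 of 13 members, against 15.9% of all, and on IV 3 of 5, against 8.02%. On V it was 2 of 7 members, against 5.13% of all, and on X 1 of 4, against 7.18%.

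**Figure D4:**
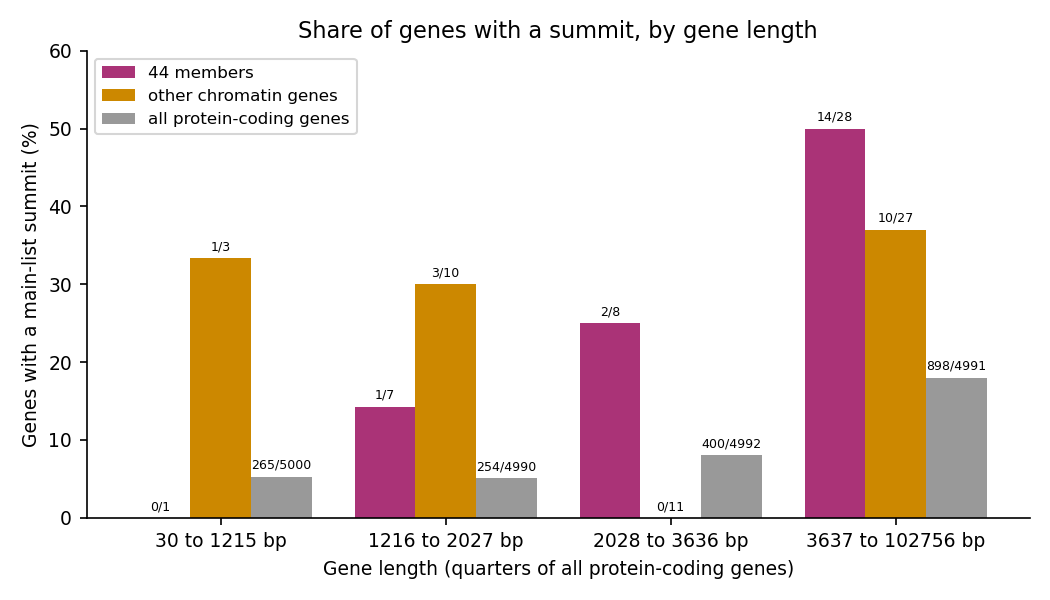
Percentage of genes with a main-list summit (y axis) in 4 classes of gene length (x axis) for the 44 members, the 51 other chromatin genes and all protein-coding genes. In the longest class 14 of 28 members had a summit, against 18.0% of all genes.

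Other chromatin genes also had peaks. Of 54 further genes listed for Polycomb, COMPASS, demethylases, remaining remodeler and acetyltransferase subunits, chromodomain proteins and sumoylation, 51 matched the annotation. This list too was drawn up with earlier results known. A main-list summit was found at 14 (27.5%), against 9.10% of all protein-coding genes. In both own lists, 6 of the 51 had one, against 3.90% of all. Among those of at least 3637 bp, 10 of 27 had a summit, against 18.0% of all genes in that class. From 2028 to 3636 bp it was 0 of 11, against 8.01%. From 1216 to 2027 bp it was 3 of 10, against 5.09%, and for shorter genes 1 of 3, against 5.30%. The SUMO-conjugating enzyme gene ubc-9 had a signal of 511 at 230 bp upstream, and the MLL-type methyltransferase gene set-16 had 345 at 139 bp upstream. Both exceed every member peak. The chromodomain gene cec-2 followed with 148, the PHD finger gene zfp-1 with 135 and dot-1.1, a histone H3 methyltransferase gene, with 135. The other 9 were swsn-7, utx-1, gei-17, spr-5, smo-1, phf-10, rbbp-5, mys-2 and cec-4.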

How the data were processed

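Chromatin sheared by sonication, with fragments of 200 to 800 bp per the labels, was profiled in 2 replicates. The authors deposited ce11 peak lists, ranked and thresholded by IDR, for each replicate, for both replicates and for the replicates compared; per the deposited notes, they derive from alignments with a control. No source used here names the aligner or peak caller. Signal values, the score and −log10 q-values were used as the authors deposited them. The deposited score belongs to the authors' IDR step.

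Summits were taken from the deposited offsets, genes from Ensembl release 115 and bases from RefSeq. Python 3.11.15 and pandas 2.3.3 assigned summits to genes, which was checked on planted summits. Replicate values are those of each replicate's own ranked list. The unnumbered first and second values of the list comparing the replicates equalled those of replicate 1 and replicate 2 within 0.01 at 19 and 20 of the 20 peaks.

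Members, gene lists and the sequence pattern were chosen with earlier results of these data known. The text describes every member with a main-list summit and gives values for the 5 strongest without one. Other genes are named when they hold a member's summit, start nearer to it, diverge from the member or are other chromatin genes with a summit. The listed names swsn-2.1, swsn-5 and swsn-8 did not match the annotation. Alternatives were other lists, windows, overlaps and a single replicate's list.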

Additional observations from a re-analysis of the deposited data

How the results depend on the processing

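The 17 members with a summit became 12 to 18 in the conservative list, with windows of 500 or 2000 bp upstream, in promoters, with the nearest gene only and without summits deep in introns, the last chosen after seeing the data. A window of 500 bp gave 14 members, against 7.89% of all protein-coding genes, and lost lin-13, lin-15B and swsn-1; one of 2000 bp gave 17, against 10.8%. With 1 replicate left out there were 8 to 14 members, 9 to 16 summits and 7 to 11 other chromatin genes. Replicate 2's own list gave the 8, where 5.13% of all protein-coding genes had a summit. It lacked lin-8, lin-15B, lin-38, lin-54, isw-1, met-1, nurf-1, set-26 and tam-1. Replicate 1's own list gave the 14, against 6.43% of all, lacking lin-8, lin-15B, set-26 and swsn-6 and adding set-25. The top 1207 peaks, fewer by construction, gave 11 members (against 4.95% of all protein-coding genes), 11 summits and 7 other chromatin genes. The 7 members in both own lists became 6 under a stricter overlap. The pattern was at 35.0% of member summits within 25 bp (7 of 20), against 51.3% of all main-list summits. Within 100 bp it was at 80.0% (16 of 20), against 74.6%. The side on which members lay relative to the list thus changed with the window. With 20 member summits these differences are small in number and were not tested. The pattern was at 81.8% of member summits in the top 1207. With the strongest summit per member, also chosen after seeing the data, it was at 64.7%. No paired analysis was possible because there is 1 group. Peak lists give no depth, so a gene without a peak may hold signal below the threshold.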
